A study of Rattus norvegicus with 4 samples.

Results

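The genes described here are the FoxO transcription factors Foxo1, Foxo3 and Foxo4 and 5 of their targets, Sesn1, Sesn3, Txnip, Pdk4 and Ccng2, in cardiomyocytes made to overexpress atrogin-1. They were chosen by name, as every probe set of the array whose annotated gene is 1 of these 8, under its current or an older symbol. This gave 15 of the 31042 probe sets, a probe set being a group of short probes that read 1 stretch of a transcript, and 8 of the 14217 genes on the array. Foxo1 and Foxo3 had 3 probe sets each, Sesn1, Sesn3 and Pdk4 had 2 each, and Foxo4, Txnip and Ccng2 had 1 each. All 15 were annotated to a single gene. The cells were primary cultures from the ventricular myocardium of Sprague-Dawley rats 1 to 2 days old, kept without serum for 24 hours after infection. Control cells (Ad-GFP, 2 arrays) received an adenovirus that carries green fluorescent protein alone, and treated cells (Ad-atrogin-1, 2 arrays) received a virus that carries atrogin-1 together with the same protein, so that both groups were infected and both made GFP. The arrays of a group are described in the labels as biological replicates. The methods mention RNA from several independent experiments without saying which array came from which, and the promoter that drives atrogin-1 in the virus is not given in the sources used here. Values are log2 signals from robust multi-array average (RMA), and changes compare Ad-atrogin-1 with Ad-GFP. With 2 arrays per group, p-values measure only the spread between these arrays.

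FoxO proteins are transcription factors that insulin and growth factor signaling hold in check: the kinase Akt phosphorylates them, and they leave the nucleus. When Akt activity falls, they enter the nucleus and switch on genes of atrophy, fuel use, stress defence and growth arrest. Fbxo32, the gene of the muscle ubiquitin ligase atrogin-1, is a FoxO target in skeletal and cardiac muscle. Earlier work of the same laboratory described atrogin-1 in turn as a co-activator of FoxO proteins in the heart, which places the FoxO factors on both sides of atrogin-1. Arrays measure the RNA of the factors and targets and give no measure of FoxO protein, its phosphorylation or its place in the cell. In a bulk sample, a smaller number of cells of a type and less RNA per cell cannot be told apart.

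RefSeq promoter windows (build GRCr8, 250 bases before to 50 bases after an annotated start) were at hand for 6 of the 8 genes, namely Foxo1, Foxo4, Sesn1, Sesn3, Pdk4 and Ccng2. The FoxO consensus GTAAACA, searched on both strands, was found in none of the 6 windows and in 3.78% of 33469 rat windows of the same length. Its 5-letter core AAACA, which lies inside the consensus, was found in 2 of the 6 windows and in 51.9% of all windows. The windows with a core, Sesn1 and Ccng2, are shown to let a reader see where these letters fall in genes whose signals are given below, with the core or its reverse complement in capitals. The matches began 167 and 32 bases before the start in Sesn1 (plus strand, chr20:46948469-46948768, a start inside the annotated gene) and 55 and 49 bases before it in Ccng2 (minus strand, chr14:15097141-15097440). A match of letters does not show that a factor binds, and absence from these windows says nothing of sites elsewhere.
Sesn1: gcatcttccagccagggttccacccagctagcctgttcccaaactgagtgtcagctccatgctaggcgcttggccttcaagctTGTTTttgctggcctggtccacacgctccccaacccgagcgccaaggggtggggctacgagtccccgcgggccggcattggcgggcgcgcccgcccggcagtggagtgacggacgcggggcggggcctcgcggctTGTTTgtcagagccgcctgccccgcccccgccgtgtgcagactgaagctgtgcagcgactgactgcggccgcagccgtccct
Ccng2: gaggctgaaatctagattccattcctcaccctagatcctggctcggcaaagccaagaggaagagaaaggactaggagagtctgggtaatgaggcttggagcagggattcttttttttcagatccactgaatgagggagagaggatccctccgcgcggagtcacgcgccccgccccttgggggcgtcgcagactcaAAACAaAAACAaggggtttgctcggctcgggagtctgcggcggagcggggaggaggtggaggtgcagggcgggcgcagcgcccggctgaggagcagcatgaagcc

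Fbxo32 itself had log2 signals of 5.24 and 5.04 in Ad-GFP and of 13.55 and 13.47 in Ad-atrogin-1 cardiomyocytes, higher on both arrays labelled Ad-atrogin-1. Whether this RNA came from the virus or from the endogenous gene cannot be told with the single probe set. All 4 arrays had closely similar distributions, with medians of 5.51 to 5.53 and lower quartiles of 3.88 to 3.95. Of 17 measured cardiomyocyte markers, all had mean signals of 8.65 or more and 1 (Tnni1) was called higher. Their median change was 0.34 on the log2 scale, beside -0.00280 for all genes. Both treated arrays were above both controls for 8 of the 17 and below them for 1, beside 2950 and 3170 of all 14217 genes. This lean was not tested. Of the 40 measured markers of fibroblasts, smooth muscle, endothelium, leukocytes and epithelium, none was called, and the medians of these 5 lists lay between -0.07 and 0.16. Among the 40, Krt19, a keratin of epithelia and mesothelium named here after its values were seen, had log2 signals of 3.20 and 5.48 in Ad-GFP and of 7.89 and 8.09 in Ad-atrogin-1 (limma adjusted p = 0.107). In the same list Krt18, another keratin, was lower on both treated arrays (7.47 and 6.58 on the Ad-GFP arrays, 6.06 and 6.33 on the Ad-atrogin-1 arrays, limma adjusted p = 0.332), and Cdh1 and Epcam had Ad-GFP means of 2.56 and 2.60 and Ad-atrogin-1 means of 2.49 and 2.56, under the lower quartile of the arrays. Their part in the values below was not tested.

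No FoxO factor and none of the 5 targets passed the test in Ad-atrogin-1 cardiomyocytes. In limma over all probe sets, 0 of the 15 had an adjusted p under 0.05 (Benjamini-Hochberg; lowest 0.363, highest 0.983), where 0.274% of all probe sets met it and also differed 2-fold or more. For genes, with the brightest probe set standing for each gene, 0 of the 8 genes were called, beside 0.513% of all genes. At an unadjusted p under 0.05 there were 2 of 15 probe sets, 1 each of Sesn3 and Foxo1, against 11.2% of all probe sets. Changes ranged from -0.39 (Sesn1) to 0.54 (Sesn3) on the log2 scale, so none reached 1.5-fold, which 4.46% of all probe sets did. The median change was -0.03 over the 15 probe sets and -0.01 over all probe sets. An exact permutation test of 2 arrays against 2 cannot give a two-sided p under 0.333, and was therefore not used for single genes.

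The precision of these values is shown by the intervals. The 95% interval of the change lay within 2-fold in both directions for 14 of the 15 probe sets, as it did for 93.9% of all probe sets. The exception was the brighter Sesn1 probe set, whose interval reached -1.08 on the log2 scale. By these intervals, a change of 2-fold or more in the signal of the other 14 lay outside. Smaller changes did not all do so: the interval of Ccng2 ran from -0.02 to 0.96, that of the bright Foxo3 probe set from -0.45 to 0.17. The intervals rest in part on a variance that limma shares across all probe sets (prior SD 0.139, with 3.65 prior and 2 residual degrees of freedom). The larger difference within a group had a median of 0.44 over the 15, beside 0.23 over all probe sets. Intervals from each probe set's own spread alone were not computed. For the dimmest Foxo1, the dim Foxo3 and the dimmer Sesn3 probe sets, signals lay near or under the lower quartile. This limits what their intervals can show of the transcript.

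**Figure D1:**
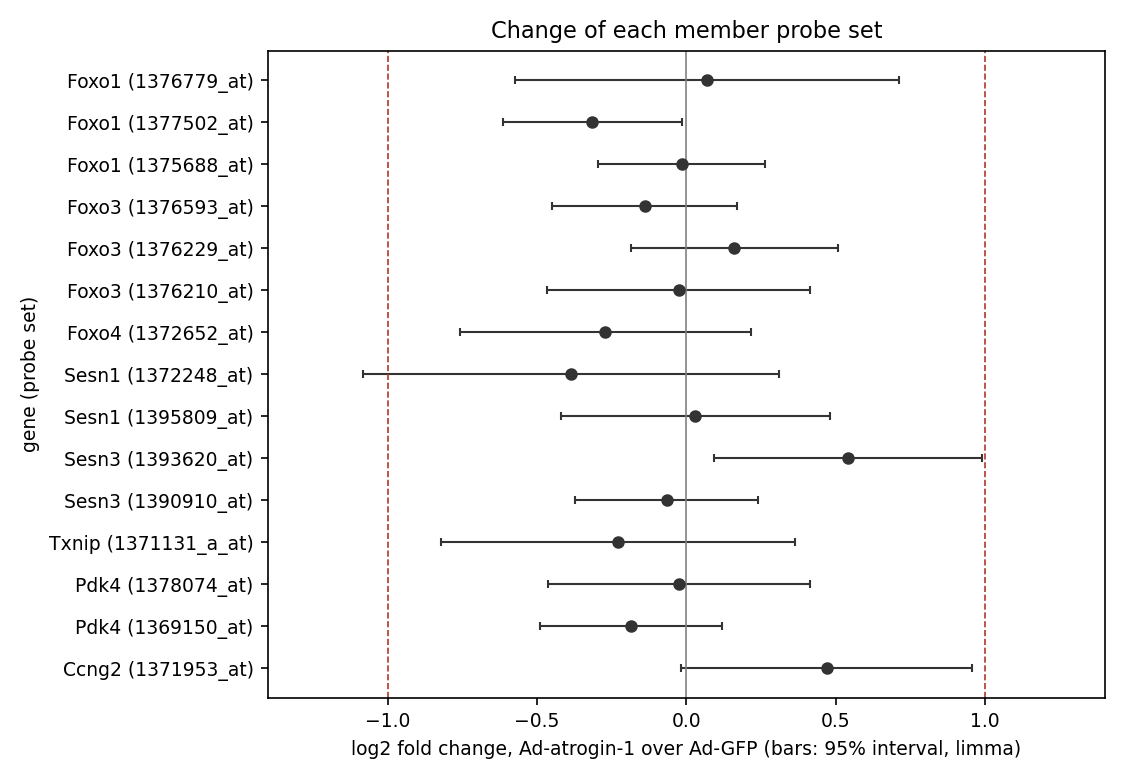
Log2 fold change of Ad-atrogin-1 against Ad-GFP (horizontal axis) of each of the 15 probe sets of the 8 genes (vertical axis), with bars for the 95% interval from limma and dashed lines at a change of 2-fold. All points lie between -0.39 and 0.54, and the bar of 1 Sesn1 probe set crosses a dashed line.

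At the probe sets of the FoxO factors themselves, changes lay between -0.32 and 0.16 on the log2 scale, and none was called. Foxo1, a factor of gluconeogenic and atrophy genes, had at its brightest probe set (1376779_at) log2 signals of 7.02 and 6.26 in Ad-GFP and of 6.61 and 6.81 in Ad-atrogin-1. Both Ad-atrogin-1 arrays fell between the Ad-GFP arrays, and the difference was 0.07 on the log2 scale (standard error, SE, 0.26, 95% interval -0.57 to 0.71). The second Foxo1 probe set (1377502_at) read 5.84 and 5.71 in Ad-GFP and 5.42 and 5.50 in Ad-atrogin-1. Here the groups did not overlap and Ad-atrogin-1 was the lower, with a log2 fold change of -0.32 (SE 0.12, unadjusted p = 0.0420, limma adjusted p = 0.425). The dimmest (1375688_at), at 3.53 to 3.56, lay under the lower quartile of every array, and no detection limit was computed. The brighter Foxo1 probe sets thus had changes of opposite sign, but the interval of the brightest included the change of the second. The difference between them was not tested, and which transcripts each reads was not examined.

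Foxo3, the factor most closely tied to atrogin-1 induction in muscle, had log2 signals of 8.60 and 8.58 in Ad-GFP and of 8.54 and 8.36 in Ad-atrogin-1 at its bright probe set (1376593_at). Both treated arrays were lower than both controls, by a log2 fold change of -0.14 (SE 0.12, limma adjusted p = 0.761) and a 95% interval of -0.45 to 0.17. Its other probe sets were dim. The first of these (1376229_at) had 3.60 and 3.87 in Ad-GFP and 3.86 and 3.93 in Ad-atrogin-1, and the second (1376210_at) had 3.88 and 3.76 against 3.57 and 4.02. In both the groups overlapped, with log2 fold changes of 0.16 (SE 0.14) and -0.03 (0.18).

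Foxo4, the X-linked member of the family, had log2 signals of 6.92 and 6.88 in Ad-GFP and of 6.90 and 6.36 in Ad-atrogin-1. Only Ad-atrogin-1 replicate 2 stood apart, and the first treated array lay between the 2 controls. The log2 fold change was -0.27 (SE 0.20, limma adjusted p = 0.692). It was -0.00109 without Ad-atrogin-1 replicate 2 and -0.54 without Ad-atrogin-1 replicate 1.

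**Figure D2:**
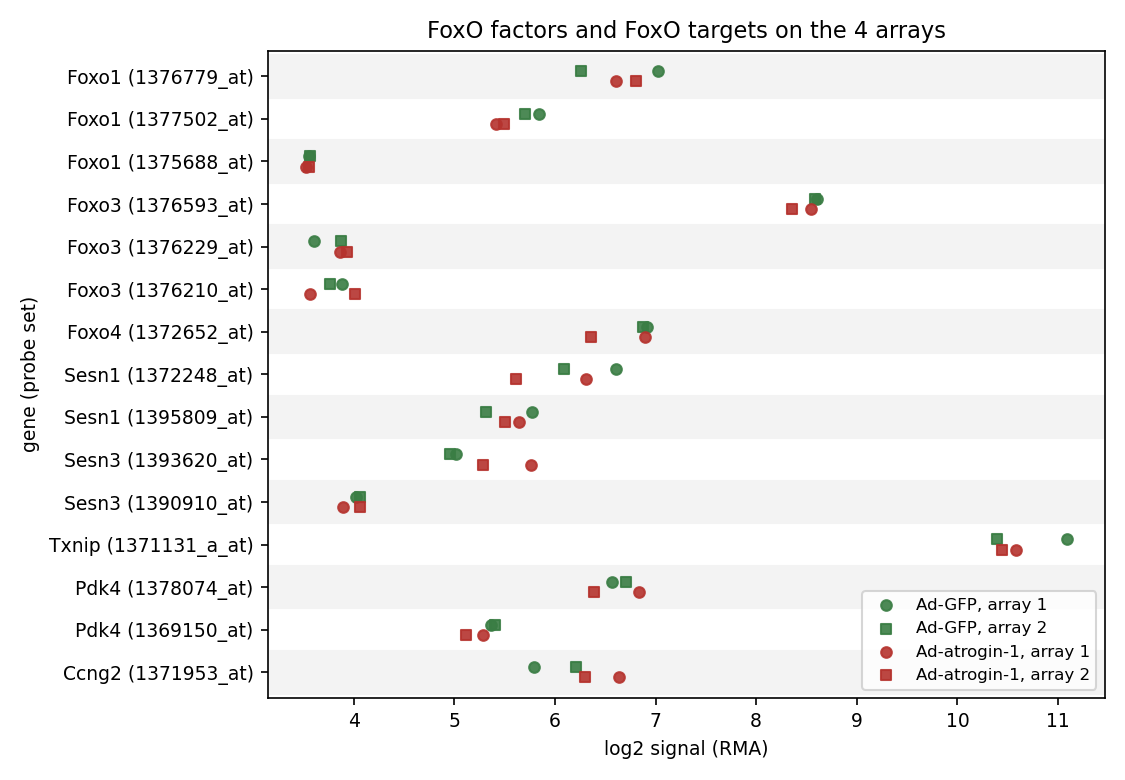
Log2 signal (RMA, horizontal axis) of each of the 15 probe sets (vertical axis) on the 2 Ad-GFP arrays (green) and the 2 Ad-atrogin-1 arrays (red); circles are replicate 1 and squares replicate 2. The groups overlap in 10 of the 15 rows, Ad-atrogin-1 lies higher in 2 and lower in 3.

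Sestrins are stress-induced proteins that restrain the growth kinase complex mTORC1, and Sesn1 and Sesn3 are FoxO targets. Sesn1 lies next to Foxo3 on rat chromosome 20 (GRCr8), with 1 protein-coding gene, Armc2, between them. Its brighter probe set (1372248_at) had log2 signals of 6.61 and 6.09 in Ad-GFP and of 6.31 and 5.62 in Ad-atrogin-1. The array with the lowest value was treated, but the other treated array lay between the controls. The log2 fold change was -0.39 (SE 0.28, limma adjusted p = 0.694), with the widest interval of the 15, from -1.08 to 0.31. Leaving out 1 array moved it between -0.04 (without Ad-atrogin-1 replicate 2) and -0.73 (without Ad-atrogin-1 replicate 1), and the mean of the Sesn1 probe sets gave -0.18. The dimmer Sesn1 probe set (1395809_at) had 5.77 and 5.31 against 5.64 and 5.50, a log2 fold change of 0.03 (SE 0.18). In each group and at both Sesn1 probe sets, replicate 2 read lower than replicate 1.

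Sesn3, which also dampens oxidative stress, had the largest change of the 8 genes when each was read at its brightest probe set. With the probe sets of a gene averaged, Sesn3 was at 0.24 and Ccng2, at 0.47, had the largest change. The brighter Sesn3 probe set (1393620_at) had log2 signals of 5.02 and 4.95 in Ad-GFP and of 5.76 and 5.29 in Ad-atrogin-1. Both treated arrays were above both controls, 1.45-fold on average (log2 fold change 0.54, SE 0.18, 95% interval 0.09 to 0.99, unadjusted p = 0.0263, limma adjusted p = 0.363). The change was 0.78 without Ad-atrogin-1 replicate 2 and 0.30 without Ad-atrogin-1 replicate 1, so that replicate 1 carried more of it. The second probe set (1390910_at) did not show it: its signals were 4.03 and 4.06 in Ad-GFP and 3.89 and 4.06 in Ad-atrogin-1, close to the lower quartile, with a log2 fold change of -0.07 (SE 0.12). The genes whose 4 values, each taken from the gene's own mean, lay nearest to those of Sesn3 were Gorasp1, Ntf3 and Ppil1, at root mean square distances of 0.0167, 0.0200 and 0.0229 on the log2 scale. With 4 arrays such likeness is common, and 81 genes lay within 0.1 of Sesn3.

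Txnip and Pdk4 turn cells away from glucose. Txnip, an arrestin-like protein that binds thioredoxin and limits glucose uptake, gave the brightest signal of the 15 probe sets (1371131_a_at). Its log2 signals were 11.09 and 10.40 in Ad-GFP and 10.58 and 10.44 in Ad-atrogin-1. Both treated arrays lay between the controls, which themselves differed by 0.69, and the log2 fold change was -0.23 (SE 0.24, limma adjusted p = 0.804). Its sign rests on Ad-GFP replicate 1, without which it was 0.12.

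Pdk4, the kinase that shuts the pyruvate dehydrogenase complex during fasting, had log2 signals of 6.57 and 6.71 in Ad-GFP and of 6.83 and 6.39 in Ad-atrogin-1 at its brighter probe set (1378074_at). The treated arrays lay on either side of the controls, with a log2 fold change of -0.03 (SE 0.18, 95% interval -0.46 to 0.41). The dimmer probe set (1369150_at) had 5.37 and 5.41 in Ad-GFP and 5.28 and 5.12 in Ad-atrogin-1. These groups did not overlap, and the log2 fold change was -0.19 (SE 0.12, limma adjusted p = 0.658).

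Ccng2, an unconventional cyclin that slows the cell cycle, had log2 signals of 5.79 and 6.21 in Ad-GFP and of 6.64 and 6.30 in Ad-atrogin-1. Both treated arrays were above both controls, although the lower treated array was only slightly above the higher control. The log2 fold change was 0.47 (SE 0.20, unadjusted p = 0.0566, limma adjusted p = 0.466), and leaving out 1 array moved it between 0.26 and 0.68. With Sesn3 it was 1 of 2 targets with the treated arrays on the high side.

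In all, the groups did not overlap at 5 of the 15 probe sets, and the count in each direction was near that of the whole array. Ad-atrogin-1 was higher at 2 (Sesn3 and Ccng2), beside 18.3% of all probe sets, and lower at 3 (1 each of Foxo1, Foxo3 and Pdk4), beside 22.1%. At 11 of the 15 the difference between the group means was smaller than the larger of the differences between 2 arrays of the same group, as at 71.2% of all probe sets. That larger difference had a median of 0.44 over the 15 probe sets and of 0.23 over all probe sets. It was 0.76 at most, for the brightest Foxo1 probe set, where Ad-GFP replicate 2 was below replicate 1. The Ad-GFP arrays differed by more than 0.4 in that same direction at 4 probe sets, of Foxo1, Txnip and Sesn1, and in the opposite direction for Ccng2.

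**Figure D3:**
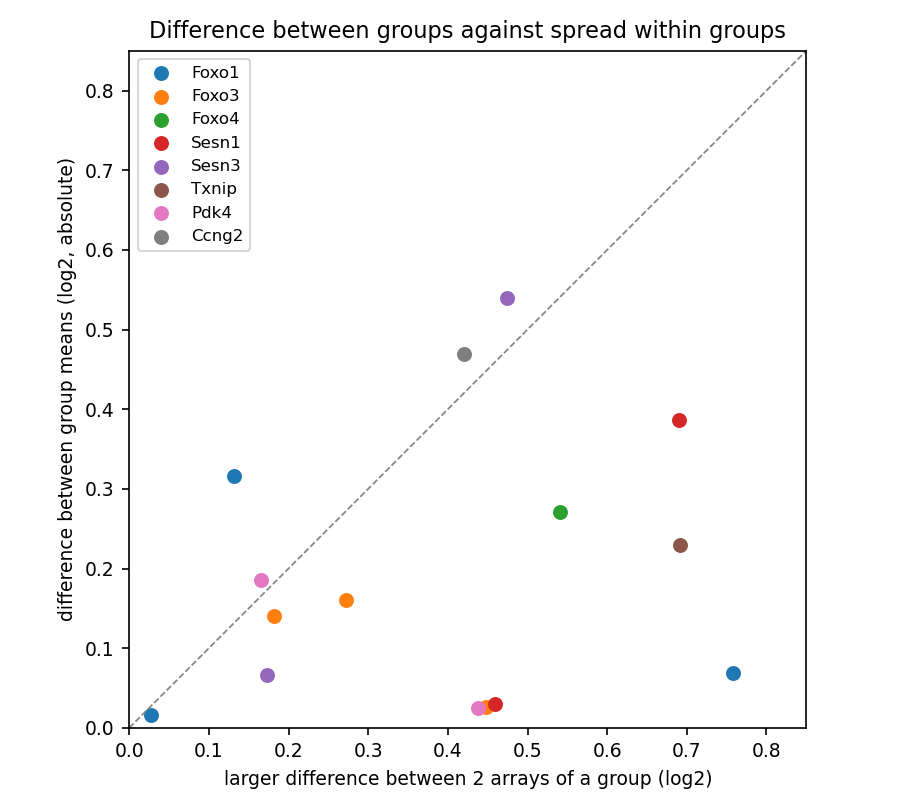
Absolute difference between the group means (log2, vertical axis) against the larger difference between the 2 arrays of a group (log2, horizontal axis) for each of the 15 probe sets, coloured by gene; the dashed line marks equality. The 11 points under the line are probe sets whose arrays differed more within a group than the group means did, and the 4 above it belong to Foxo1, Sesn3, Pdk4 and Ccng2.

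The wider FoxO pathway was read at gene level from 7 lists of relatives, targets, regulators and partners, with 123 measured genes of 141 listed. Fbxo32, the gene that the virus carries, was the 1 gene called higher, and none was called lower. Of all genes 0.513% were called, so an absence of calls in lists this short says little about their genes. Without Fbxo32 the other 122 genes had changes between -0.93 and 0.96 on the log2 scale and a median of -0.04, beside -0.00280 for all genes, and 19 had an unadjusted p under 0.05 in limma, as did 13.4% of all genes.

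Of the 10 measured relatives of the 8 genes none was called. Pdk1 and Arrdc3 had larger changes than any of the 8, and the other 8 relatives lay between -0.05 and 0.41 on the log2 scale, with a list median of 0.06. Pdk1, another pyruvate dehydrogenase kinase, had log2 signals of 7.20 and 7.51 in Ad-GFP and of 8.43 and 8.19 in Ad-atrogin-1 (change 0.96, SE 0.16, limma adjusted p = 0.0869). Both treated arrays were above both controls. Arrdc3, an arrestin-like relative of Txnip, had 9.74 and 9.18 against 8.63 and 8.42, and was lower on both treated arrays (-0.93, SE 0.21, limma adjusted p = 0.168). The difference in change between Pdk1 and Pdk4, or between Arrdc3 and Txnip, was not tested. Ccng1, the sister cyclin of Ccng2, had a difference of 0.02 (SE 0.15), and Sesn2, the third sestrin, one of 0.25 (0.18).

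Of 15 muscle atrophy targets, Fbxo32, the gene that the virus carries, was called and the other 14 were not. The list median was 0.01. Changes of the other 14 ran from -0.41 for Fbxo30 (limma adjusted p = 0.335) to 0.72 for Bnip3 (limma adjusted p = 0.461). None of 25 targets in growth, death and stress defence was called (median -0.09). Among them the mitochondrial coactivator gene Ppargc1a had the largest change, 0.70 (SE 0.22, limma adjusted p = 0.274), followed by the endothelial and leukocyte quiescence factor Klf2 with -0.57 (0.16). The brightest were the mitochondrial superoxide dismutase gene Sod2, at -0.50 (SE 0.18), and the transcriptional modulator Cited2, at -0.06 (0.24).

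None of 31 regulators of FoxO proteins was called (median -0.06). Both treated arrays were below both controls for 12 of the 31 and above them for 3. Over the 122 pathway genes without Fbxo32 these counts were 27 and 26, and over all 14217 genes 3170 and 2950. The lean of this list was not tested. The Akt-like kinase gene Sgk3 had log2 signals of 6.73 and 6.62 in Ad-GFP and of 5.90 and 5.98 in Ad-atrogin-1, lower on both treated arrays (-0.73, SE 0.12, limma adjusted p = 0.0783). Ywhah, which encodes a 14-3-3 protein of the kind that holds phosphorylated FoxO outside the nucleus, had -0.53 (SE 0.12, limma adjusted p = 0.170), while the genes of related proteins with the highest signals, Ywhae and Ywhaq, had 0.02 (0.12) and 0.11 (0.12).

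None of 10 thioredoxin and glucose sensing partners of Txnip was called (median 0.03), with -0.54 (SE 0.28) for the glucose transporter gene Slc2a4, 0.42 (0.21) for Slc2a1, -0.07 (0.12) for thioredoxin, Txn1, and 0.08 (0.24) for its reductase, Txnrd1. Of 14 genes of the pyruvate dehydrogenase complex and its control, 0 were called (median -0.10). Angptl4, a lipase inhibitor regulated with Pdk4 by fatty acid receptors, had log2 signals of 8.30 and 8.57 in Ad-GFP and of 7.69 and 7.33 in Ad-atrogin-1 (-0.93, SE 0.17, limma adjusted p = 0.106). The subunit genes Dld and Pdha1 had 0.44 (0.12) and -0.22 (0.18). None of 18 sestrin partners in mTORC1 control was called (median 0.05). Sec13, a subunit of the complex that sestrins inhibit and also of a vesicle coat of the endoplasmic reticulum, had 0.53 (SE 0.13, limma adjusted p = 0.192), the mTORC1 inhibitor gene Tsc1 -0.41 (0.15) and the autophagy receptor gene Sqstm1 0.16 (0.17).

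**Figure D4:**
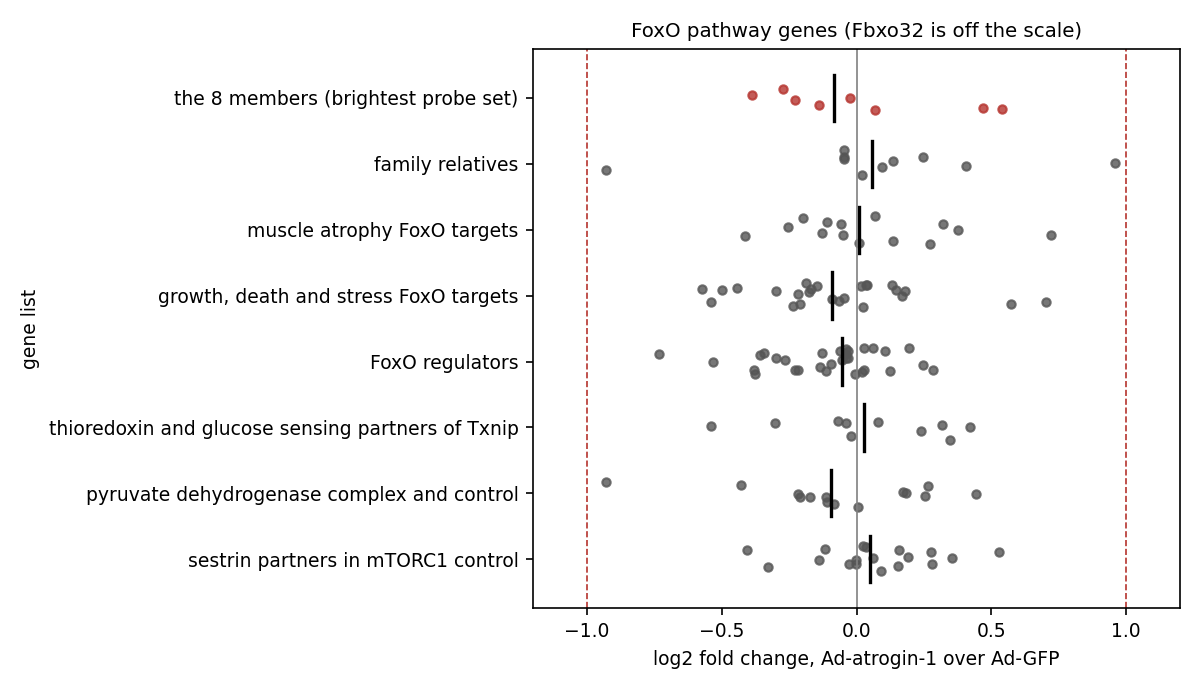
Log2 fold change of Ad-atrogin-1 against Ad-GFP (horizontal axis) of the measured genes of each list (vertical axis), with the 8 genes at their brightest probe set in red, black bars for list medians and dashed lines at 2-fold; points are spread vertically for legibility. Apart from Fbxo32, which is off the scale, all points lie between -0.93 and 0.96 and all list medians, that of the 8 genes included, lie between -0.10 and 0.06.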

How the data were processed

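The deposited log2 values are the RMA signals the authors made from Affymetrix rat genome arrays in GeneSpring GX, and they were used without further normalization. Array data have no read depth, and the number of arrays limits the precision. Probe sets were named through the annotation table of this array (gene IDs of 20758 probe sets matched RefSeq genes, GRCr8), control probe sets (57) were left out, and no filter on signal was applied. limma 3.58.1 in R 4.3.3 (lmFit, eBayes, two-sided) was run on all 31042 probe sets, with Benjamini-Hochberg adjustment over them, or over 14217 genes, each represented by its brightest probe set on average. A call required 2-fold or more and an adjusted p below 0.05. The fit was tested on simulated arrays with independent noise, for the sign of large changes and the coverage of the intervals. How often it calls changes of the size seen here is not given.

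The genes and lists were chosen with earlier results of these data known. Named are Fbxo32, every probe set of the 8 genes, the called genes of each pathway list or, where none was called, its 2 largest changes and 2 highest signals, and the 3 genes nearest to the member with the largest change. Fbxo30 and Bnip3 were named besides, as the ends of a range. Of the listed genes, 21 had no probe set with 1 gene. Alternatives were other scalings, a filter on the upper 60% by signal, a trend or robust prior, an equal-variance test, other thresholds, a replicate block, averaged probe sets and each array left out. Figures were drawn with matplotlib 3.10.9.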

Additional observations from a re-analysis of the deposited data

How the results depend on the processing

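In no setting was any of the 15 probe sets or 8 genes called. The lowest adjusted p over all settings was that of Sesn3 in limma, 0.289 among probe sets when limited to the 60% with the highest signals, which held 11 of the 15, and 0.254 among genes after a further quantile normalization (0.297 among genes as reported). The settings differ in how much they call at all: against 85 of all probe sets as reported, limma called 1 with the replicate number as a block (replicate block) and 0 with any 1 array left out, and the equal-variance test called 0, so these say little about the 15. With the replicate block, 0 of the 15 were called, and same-numbered arrays deviated together with a correlation of 0.04 over all probe sets, so the numbers were not taken to pair the arrays. Under this block the brighter Sesn1 probe set kept its change of -0.39, with a smaller SE of 0.12 (limma unadjusted p = 0.0313, adjusted p = 0.412). The second Foxo1 probe set went the other way, to a limma unadjusted p of 0.0617. The equal-variance test gave none of the 15 an unadjusted p under 0.05 (lowest 0.0540).

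The sign of 8 probe sets was the same in every setting that tested them, and it turned for 7, whose 95% intervals all included 0. With 1 array left out, the log2 fold change ranged from -0.31 to 0.45 for the brightest Foxo1, -0.25 to 0.20 for the dimmest Foxo3, -0.20 to 0.26 for the dimmer Sesn1, -0.15 to 0.020 for the dimmer Sesn3, -0.24 to 0.19 for the brighter Pdk4 and -0.57 to 0.12 for the Txnip probe set. The dimmest Foxo1 probe set turned to 0.010 after a further quantile normalization, and Foxo1 turned to -0.088 when its probe sets were averaged. The causes were not tested. Signals near the lower quartile limit what the dim Foxo1, Foxo3 and Sesn3 probe sets can show.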
